A study of Arabidopsis thaliana with 15 samples.

Results

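The plastid-encoded rows of an Arabidopsis thaliana leaf RNA-seq table were examined, chosen as every row whose identifier starts with ATCG, the locus prefix of the plastid chromosome. There were 133 such rows among 73194. The libraries came from total RNA of leaves of 3-week-old plants that the labels give as untreated, with 3 libraries of prp4k3, which the series' design text also writes amiR-PRP4K3 (an artificial microRNA line), and 3 libraries of Col-0, the wild-type accession. The labels name no promoter for the artificial microRNA and no number of independent lines or plants. The small RNA table holds miRNAs only and was not used, and the 3 se-2 RNA-seq samples that the labels list were not analysed here. Whether each library stands for its own plants is not stated, and the p-values below thus reflect only how these libraries vary, which may be technical variation.

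The plastid chromosome of land plants encodes core subunits of the photosystems, the cytochrome b6f complex, the ATP synthase and the NADH dehydrogenase-like (NDH) complex, the large subunit of Rubisco, part of the plastid ribosome, and the tRNAs and rRNAs of the organelle. Its genes are transcribed by the plastid-encoded RNA polymerase (PEP), which needs nuclear-encoded sigma factors and associated proteins, and by nuclear-encoded phage-type polymerases. Many plastid genes are transcribed together as polycistronic units, and the remaining subunits of each complex are made from nuclear genes and imported. Per the RefSeq table of assembly TAIR10.1, the plastid chromosome carries 85 protein-coding, 37 tRNA and 7 rRNA genes, among them 5 with symbols starting psa (photosystem I), 15 psb (photosystem II), 12 ndh, 4 rpo (PEP core), 14 rps and 11 rpl (ribosomal proteins). Neither the deposited table nor that RefSeq table pairs an ATCG identifier with a symbol (0 of 133 matched). The rows were therefore described by their identifier or by their rank in abundance, without gene names, and shares by class of gene were not computed. Rows were not scaled to their length, so a large share of counts is not a statement about transcripts per gene.

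Library totals were 16955629, 16041754 and 16532386 counts in prp4k3 replicates 1 to 3 and 18305640, 19344157 and 18325566 counts in Col-0 replicates 1 to 3. Each pair of replicates differed by more than sampling noise in a chi-square comparison of counts, so each library was kept as 1 replicate. The loci behind the name PRP4K3 are not paired with that name in the files or the RefSeq table, and the level of the targeted transcripts was not analysed here.

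Plastid-encoded rows took a smaller share of the counts in prp4k3 leaves than in Col-0 leaves. They summed to 6533067, 6064640 and 6532487 counts in prp4k3 and to 9308177, 9279841 and 8859384 counts in Col-0. That was 38.5%, 37.8% and 39.5% of each prp4k3 library, against 50.8%, 48.0% and 48.3% of each Col-0 library. The shares averaged 38.6% ± 0.857 in prp4k3 and 49.1% ± 1.56 in Col-0 (SD, n = 3 each), a difference of -10.4 percentage points, and the groups did not overlap (exact two-sided permutation test, p = 0.1, the smallest that 3 against 3 libraries allow). Per nuclear-encoded count, the plastid sum was 0.639, 0.619 and 0.666 counts in prp4k3 and 1.05, 0.938 and 0.953 counts in Col-0. In whole leaves, fewer plastid-rich cells, fewer plastids per cell and less RNA per plastid cannot be told apart.

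In percentage points of the library, the difference lay almost wholly in the 2 most abundant plastid rows, ATCG00020 and ATCG00490. Percentages of a library are tied together, since a fall in 2 such large rows raises the percent of every other row. The split therefore does not mean that the other plastid rows were unchanged: relative to nuclear transcripts, 72 of the 95 tested rows were called lower (below). Together they took 20.2%, 19.7% and 21.5% of each prp4k3 library and 31.4%, 28.8% and 30.4% of each Col-0 library, a difference of -9.67 percentage points between a mean of 20.5% ± 0.927 in prp4k3 and of 30.2% ± 1.27 in Col-0 (SD, n = 3 each; exact permutation test, p = 0.1). All other plastid rows together took 18.3%, 18.1% and 18.0% in prp4k3 and 19.5%, 19.2% and 18.0% in Col-0. These values overlapped between the genotypes, and the difference was -0.767 percentage points (exact permutation test, p = 0.3). When the 2 rows were removed from the numerator and from the library total alike, an alternative added after the data were seen, the plastid share was 22.9%, 22.5% and 22.9% in prp4k3 and 28.4%, 26.9% and 25.8% in Col-0. The groups then still did not overlap (difference -4.26 percentage points, exact permutation test, p = 0.1).

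**Figure D1:**
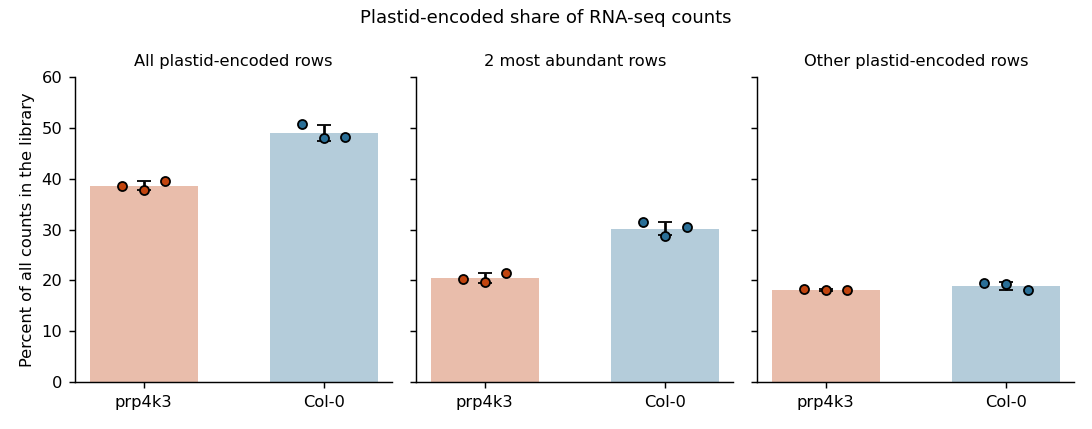
Percent of all counts in a library (vertical axis, from 0) taken by all plastid-encoded rows, by the 2 most abundant of them and by the others. Points are the 3 libraries of each genotype, bars the mean and error bars the SD; prp4k3 and Col-0 are separate in the left and middle panels and overlap in the right one.

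To give the change of each row against nuclear transcripts, counts were scaled by library size and TMM factors (trimmed mean of M-values) taken from nuclear-encoded rows alone, and tested with edgeR over all 18609 features that passed a filter on low counts. Calls were made where the p adjusted by the Benjamini-Hochberg method was under 0.05. Of the 133 plastid rows, 95 were tested, with 98 to 20233201 counts over the 6 libraries. Another 21 rows had 0 counts in every library, and 17 rows with 1 to 50 counts in total did not pass the filter. The 38 untested rows together held 192 counts in the 6 libraries, and 36 of them formed 2 unbroken runs of 18 rows in the table. A floor of 3 counts was 4.59e-05% to 4.95e-05% of the plastid sum in prp4k3 libraries and 3.22e-05% to 3.39e-05% in Col-0 libraries, by counting error only. That floor limits what the table counted, not the RNA of a row: how reads that fit more than 1 place were counted is not given in the sources used here, so a 0 in those 2 runs sets no limit on the share of plastid RNA.

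Relative to nuclear transcripts, plastid rows were mostly lower in prp4k3. Of the 95 tested rows, 72 were called lower and 10 higher, and 13 were not called. The called rows were 86.3% of those tested, against a background of 65.7% called among all 18609 features. By direction, 75.8% of the tested plastid rows were lower and 10.5% higher, against 30.5% lower and 35.2% higher in the background. The median log2 fold change of prp4k3 over Col-0 was -0.82 over the tested plastid rows (quartiles -1.20 and -0.38) and 0.06 over all features. The lower rows spanned -2.04 to -0.23 and the higher rows 0.34 to 1.15. In 74 rows every prp4k3 library lay below every Col-0 library and in 10 every one lay above, where the background shares of such features were 32.5% and 38.0% (70.4% in either direction). The authors' deposited table called 71 plastid rows lower and 10 higher among the 112 for which it gives a p-value. That set is wider than the 95 rows tested here and rests on the same counts. The rows called lower were not all the same.

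The size of the fall depended on the scale. TMM factors over nuclear rows were 1.22, 1.19 and 1.21 in prp4k3 and 0.841, 0.834 and 0.818 in Col-0. Scaled to total counts instead, which moved the median of all features to 0.86, 31 plastid rows were higher and 30 lower and their median was -0.02. Scaled to total nuclear counts without TMM, which moved the median of all features to 0.59, 20 were higher and 46 lower and their median was -0.28. Of the calls among all features, 87.2% were higher under total counts and 79.1% under total nuclear counts. On each of these scales the plastid median lay below that of all features. A change of scale moves every row by about the same step, so this had to follow from the nuclear scale. Total-count scaling moved all features up, so the 10 rows called higher had to stay higher there. Of the 72 called lower, 30 kept their call and 12 were called higher there.

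**Figure D2:**
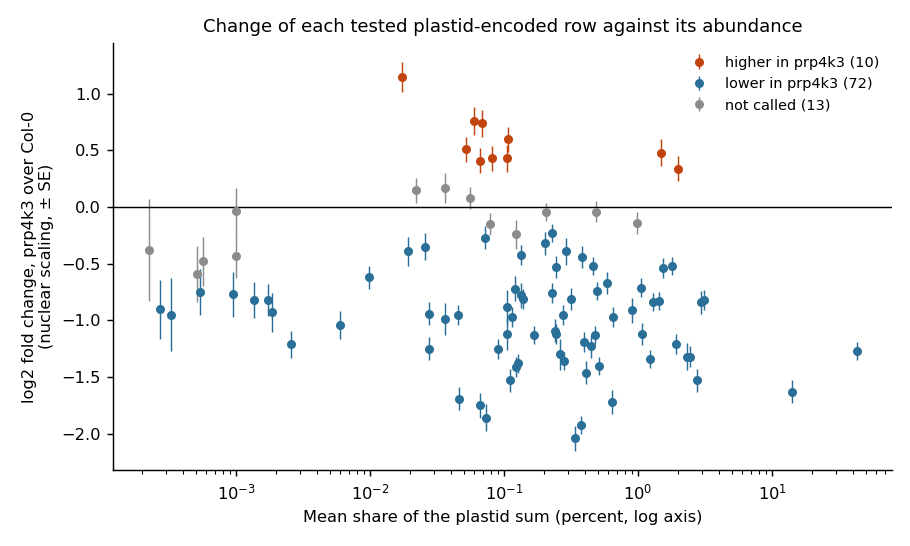
Log2 fold change of prp4k3 over Col-0 on the nuclear scale (vertical axis, error bars the SE) against the mean percent of the plastid sum (horizontal log axis) for the 95 tested plastid rows, coloured by call. The 72 lower rows span the whole range of abundance and the 10 higher rows lie between 0.0172% and 1.99%. Under total-count scaling 31 rows are higher and 30 lower, where 87.2% of the calls among all features are higher.

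The most abundant plastid row, ATCG00020, had 2638694, 2524890 and 2723526 counts in prp4k3 and 4213923, 4068018 and 4064150 counts in Col-0. Every prp4k3 library was below every Col-0 library. On the nuclear scale it fell by 1.27 on the log2 scale (SE 0.08, edgeR adjusted p = 1.23e-06). The second, ATCG00490, had 791647, 642089 and 836909 counts in prp4k3 and 1524942, 1507058 and 1498233 counts in Col-0, again without overlap. It fell by 1.63 (SE 0.10, edgeR adjusted p = 1.43e-06). The ratio of these 2 rows needs no scaling: there were 0.300, 0.254 and 0.307 ATCG00490 counts per ATCG00020 count in prp4k3 and 0.362, 0.370 and 0.369 in Col-0, so the second row was lower relative to the first in every prp4k3 library (exact permutation test, p = 0.1).

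The rows with the largest called rises were ATCG00820 and ATCG00810. ATCG00820 had 1834, 1634 and 2008 counts in prp4k3 and 589, 525 and 476 counts in Col-0. The prp4k3 libraries had smaller totals but larger nuclear sizes after TMM, so the raw counts show a larger rise than the nuclear scale. On the nuclear scale the log2 fold change of ATCG00820 was 1.15 (SE 0.13, edgeR adjusted p = 4.61e-05). ATCG00810 had 6326, 5576 and 6147 counts in prp4k3 and 2569, 2381 and 1955 counts in Col-0, with a log2 fold change of 0.76 (SE 0.12, edgeR adjusted p = 0.000399). Set against the second most abundant row, with no scaling, there were 2.32, 2.54 and 2.40 ATCG00820 counts per 1000 ATCG00490 counts in prp4k3 and 0.386, 0.348 and 0.318 in Col-0. The same ratio for ATCG00810 was 7.99, 8.68 and 7.34 in prp4k3 and 1.68, 1.58 and 1.30 in Col-0. Neither ratio overlapped between the genotypes; both are descriptions, since the rows were chosen for their rise.

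The 10 rows called higher ranged from scarce to abundant. None had under 1000 counts over the 6 libraries. Together they held 5.75%, 6.29% and 6.06% of the plastid sum in prp4k3 and 2.20%, 1.90% and 1.99% in Col-0, a description only, since they were chosen on their rise. The most abundant of them was the eighth row by rank, with 182517, 184588 and 192942 counts in prp4k3 and 105607, 90046 and 90845 counts in Col-0 (log2 fold change 0.34, SE 0.11, edgeR adjusted p = 0.0181). The twelfth row by rank had 136652, 145032 and 149198 counts in prp4k3 and 74027, 60974 and 64133 counts in Col-0 (log2 fold change 0.48, SE 0.12, edgeR adjusted p = 0.00462). At the other end, the row with the lowest log2 fold change, -2.04 (SE 0.11, edgeR adjusted p = 8.74e-07), had 16247, 13888 and 15448 counts in prp4k3 and 36221, 49649 and 35818 counts in Col-0, and was the 33rd by rank.

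The makeup of the plastid transcripts differed as well as their sum. The counts were spread over more rows in prp4k3. ATCG00020 took 40.4%, 41.6% and 41.7% of the plastid sum in prp4k3 and 45.3%, 43.8% and 45.9% in Col-0. ATCG00490 took 12.1%, 10.6% and 12.8% in prp4k3 and 16.4%, 16.2% and 16.9% in Col-0. The pair together held 53.1% ± 1.24 in prp4k3 and 61.5% ± 1.36 in Col-0, and the 10 most abundant rows held 73.6% ± 0.839 in prp4k3 and 79.4% ± 0.753 in Col-0 (SD, n = 3 each; exact permutation test, p = 0.1 for each). To reach 90% of the plastid sum took 26, 25 and 24 rows in prp4k3 and 21, 23 and 21 rows in Col-0.

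Counts were also scaled to the plastid sum of each library, so that a row is set against the other plastid rows. On this scale 46 of the 95 rows were called higher, 12 lower and 37 not called, 61.1% of those tested, against 83.2% of all features called (78.3% higher and 4.88% lower). All features had a median log2 fold change of 1.20 here, because the scale falls with the plastid sum. The plastid rows had a median of 0.32 and a range of -0.90 to 2.30. The change of scale moved plastid rows by 1.15. Shares did not overlap between the genotypes in 50 rows that were higher and 17 that were lower in prp4k3, against 78.7% and 5.04% of all features (83.7% in either direction). Because that step was about the same for every row, the order of the rows stayed nearly as it was, and the 10 rows called higher on the nuclear scale had to be higher here. The 12 rows called lower here are the rows whose fall exceeded that of the plastid sum by enough to pass the test, and all 12 were among the 72 called lower on the nuclear scale.

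Within the plastid sum, ATCG00490 fell by 0.48 on the log2 scale (SE 0.08, edgeR adjusted p = 0.000276). ATCG00020 had a log2 fold change of -0.13 (SE 0.06) and did not pass (edgeR adjusted p = 0.0822). It was called lower when the 2 most abundant rows were left out of the sum used as scale (-0.41, edgeR adjusted p = 0.000424) and with TMM factors over plastid rows (-0.44, edgeR adjusted p = 0.000533). The sums without those rows also moved the counts, to 31 rows higher and 29 lower with a median of 0.04. ATCG00820 took 0.0281%, 0.0269% and 0.0307% of the plastid sum in prp4k3 and 0.00633%, 0.00566% and 0.00537% in Col-0, a log2 fold change of 2.30 (SE 0.13, edgeR adjusted p = 6.61e-08). ATCG00810 took 0.0968%, 0.0919% and 0.0941% in prp4k3 and 0.0276%, 0.0257% and 0.0221% in Col-0, a log2 fold change of 1.91 (SE 0.12, edgeR adjusted p = 1.54e-07).

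The rows just behind the leading pair did not move alike. The third row by rank held 3.52%, 3.51% and 3.39% of the plastid sum in prp4k3 and 2.90%, 2.63% and 2.73% in Col-0, and rose within the plastid sum (log2 fold change 0.34, edgeR adjusted p = 0.00252) while it fell on the nuclear scale (-0.82). The fifth held 2.19%, 2.75% and 2.20% in prp4k3 and 2.94%, 3.31% and 3.06% in Col-0, and fell on both scales (-0.38 within the plastid sum, edgeR adjusted p = 0.00605, and -1.53 on the nuclear scale). The eighth held 2.79%, 3.04% and 2.95% in prp4k3 and 1.13%, 0.970% and 1.03% in Col-0, and rose on both (1.49 within the plastid sum, edgeR adjusted p = 1.36e-07). The sixth, seventh and ninth rows fell on the nuclear scale and were not called within the plastid sum, with log2 fold changes of -0.18, -0.17 and -0.06 there.

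**Figure D3:**
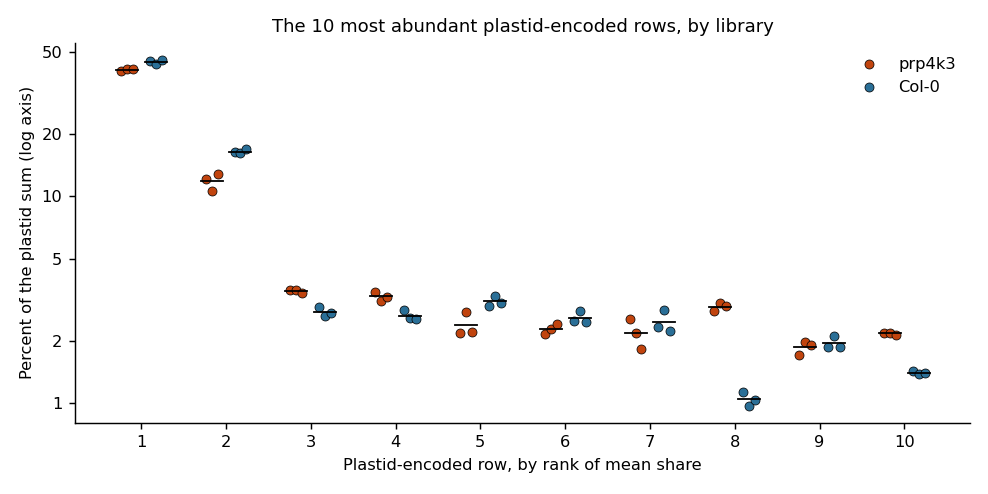
Percent of the plastid sum (vertical log axis) in each library for the 10 plastid rows with the largest mean share, in order of rank (horizontal axis); points are libraries, prp4k3 left of Col-0, and lines are means. Ranks 1 and 2 are lower in prp4k3, rank 8 is higher in every prp4k3 library, and ranks 7 and 9 overlap.

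Rows of middling and low abundance took a larger part of the plastid sum in prp4k3. The 17 rows with a mean share of 1% or more held 84.2% ± 0.618 of it in prp4k3 and 87.1% ± 0.648 in Col-0, and 2 of them were higher and 15 lower on the nuclear scale. The 42 rows between 0.1% and 1% held 14.4% ± 0.595 in prp4k3 and 12.1% ± 0.605 in Col-0, with 2 higher and 36 lower. The 21 rows between 0.01% and 0.1% held 1.32% ± 0.0242 in prp4k3 and 0.811% ± 0.0442 in Col-0 (SD, n = 3 each), with 6 higher and 11 lower and a median log2 fold change of -0.27. The 15 rows under 0.01%, 12 of which had under 1000 counts in total, had none higher and 10 lower, with a median of -0.77. Across the 95 rows the rank correlation of mean share with log2 fold change on the nuclear scale was weak (Spearman rho -0.266, or -0.23 without the 2 most abundant rows); the rows share libraries and are not independent.

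Replicates of a genotype also varied. Over the 83 rows with 1000 counts or more, the coefficient of variation of a row's share of the plastid sum had a median of 5.84% in prp4k3 (1.15% to 21.6%) and of 7.11% in Col-0 (1.34% to 22.4%). The highest share was that of replicate 1 in 35 rows, of replicate 2 in 38 and of replicate 3 in 10 in prp4k3. In Col-0 it was that of replicate 1 in 26, of replicate 2 in 48 and of replicate 3 in 9. Replicates of a genotype thus differed in many rows at once, so the rows are not independent readings of the genotype.

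Rows that stand next to each other in the table tended to have like changes. Over 91 adjacent pairs of tested rows, the log2 fold changes on the nuclear scale had a Pearson r of 0.601 and a Spearman rho of 0.511, with a median absolute difference of 0.41, where all 4465 pairs of tested rows had a median of 0.60. The 10 rows called higher fell into 5 places, 3 of them with 2 adjacent rows, 1 with 3 and 1 with a single row. ATCG00810 and ATCG00820 were adjacent, and with the row before them formed the run of 3. Neighbours that overlap can share reads, and the counting of reads that fit more than 1 place, such as the copies of the inverted repeat of the plastid chromosome, is not given in the sources used here. The part of shared reads in this likeness was not tested.

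**Figure D4:**
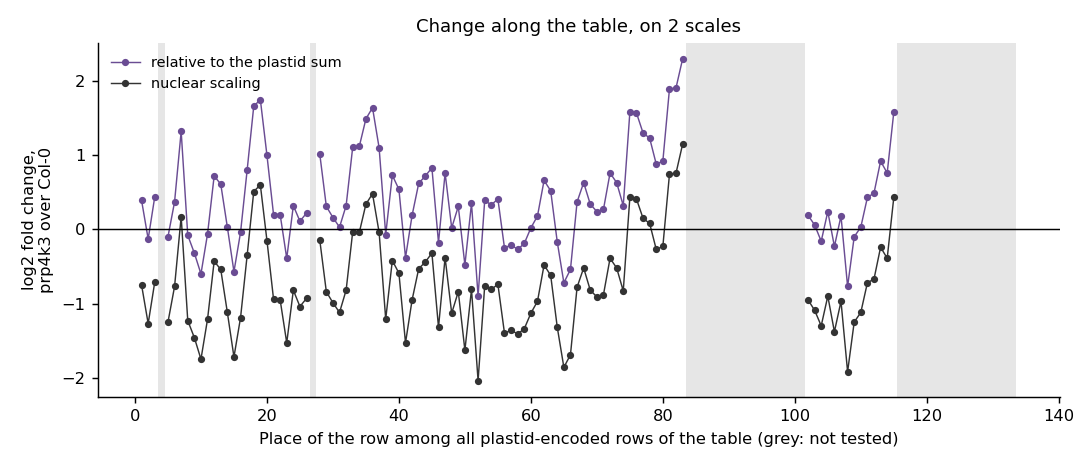
Log2 fold change of prp4k3 over Col-0 (vertical axis) for each tested plastid row by its place among the 133 rows of the table (horizontal axis), on the nuclear scale (black) and relative to the plastid sum (purple); grey marks untested rows. The purple values lie 1.15 above the black ones, the highest values stand in a few runs of neighbouring rows, and the wide grey blocks are 2 runs of 18 rows.

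Nuclear genes for subunits of the same photosynthetic complexes were also lower in prp4k3. Of 46 listed genes, all were tested and 46 were called lower on the nuclear scale, with a median log2 fold change of -1.68, against 30.5% of all features lower and a median of 0.06. They comprised 12 genes of photosystem I (median -1.72), 13 of photosystem II (-1.68), 5 of the cytochrome b6f complex and ATP synthase (-1.54), 4 Rubisco small subunits (-1.82) and 12 of the NDH complex (-1.54). Under total-count scaling 42 of the 46 were lower and 1 was higher, where 87.2% of the calls among all features were higher. The plastid rows had a median of -0.82 on the same nuclear scale, and that difference of medians was not tested, since the lists were chosen with earlier results of these data known.

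PSAK (AT1G30380), a photosystem I subunit, had 932, 974 and 990.1 CPM in prp4k3 and 3508, 3811 and 3649 CPM in Col-0, where CPM is the count scaled by nuclear library size and TMM factor (log2 fold change -1.92, SE 0.08, edgeR adjusted p = 3.76e-07). PSBTN (AT3G21055), a small photosystem II protein, had 864, 737 and 784 CPM in prp4k3 and 4092, 4399 and 3951 CPM in Col-0 (log2 fold change -2.38, SE 0.10, edgeR adjusted p = 3.35e-07). PSAE-1 (AT4G28750), another photosystem I subunit, averaged 1005 ± 26.6 CPM in prp4k3 and 3484 ± 78.2 CPM in Col-0 (SD, n = 3 each). PSBO1 (AT5G66570), a protein of the oxygen-evolving complex, averaged 2452 ± 56.8 CPM in prp4k3 and 7874 ± 169 CPM in Col-0 (SD, n = 3 each). RBCS2B (AT5G38420), a Rubisco small subunit with near-identical paralogs that may share reads, averaged 1259 ± 73.9 CPM in prp4k3 and 6251 ± 602 CPM in Col-0, and fell by 2.31. Its paralog RBCS3B (AT5G38410) fell by 2.08. In the NDH complex PnsB4 (AT1G18730) fell by 2.17 (SE 0.11, edgeR adjusted p = 7.28e-07). PnsL1 (AT2G39470), of the same complex, averaged 83.4 ± 7.24 CPM in prp4k3 and 320.1 ± 7.82 CPM in Col-0 (SD, n = 3 each). In PSAK and PSBTN every prp4k3 library lay below every Col-0 library.

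Among the nuclear genes of plastid transcription, the 6 sigma factors, which guide PEP to promoters, had 1 member higher and 3 lower on the nuclear scale. With 65.7% of all features called (35.2% higher and 30.5% lower), that number of calls does not set them apart. The edgeR fit on total counts called 3 of them higher and the fit on total nuclear counts 2, and neither called a sigma factor lower. On those scales 87.2% and 79.1% of all calls were higher, so higher calls there do not set them apart either. SIG2 (AT1G08540) rose by 0.36 on the log2 scale (SE 0.11, edgeR adjusted p = 0.0166), with 77.5, 77.5 and 80.4 CPM in prp4k3 and 54.0, 65.7 and 64.1 CPM in Col-0, and the call was lost without Col-0 replicate 1 (edgeR adjusted p = 0.0833). SIGA (AT1G64860) fell by 0.57 (edgeR adjusted p = 0.0184), SIGC (AT3G53920) by 0.48 (edgeR adjusted p = 0.00416) and SIG4 (AT5G13730) by 0.54 (edgeR adjusted p = 0.0205), but under total-count scaling these log2 fold changes turned to 0.24, 0.32 and 0.26. SIGE (AT5G24120), a factor known for its response to stress and blue light, had 101, 284 and 75.0 CPM in prp4k3 and 214, 289 and 254 CPM in Col-0. Its value of -0.72 was not called (edgeR adjusted p = 0.146), and without prp4k3 replicate 2, the library that lay among the Col-0 values, it was -1.52 (edgeR adjusted p = 5.3e-05). The latter is a description only, since that library was singled out for its level. With all libraries, SIGE was at 0.08 under total-count scaling. SIGF (AT2G36990) had a log2 fold change of -0.22 (edgeR adjusted p = 0.149), which was 0.58 under total-count scaling.

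Both listed phage-type polymerases were called higher on the nuclear scale, against 35.2% of all features. The total-count and total nuclear scales move all features up, so both had to be higher there too. Higher calls made up 53.6%, 87.2% and 79.1% of all calls on the nuclear, total-count and total nuclear scales, in that order. The polymerase not named here had only 10, 13 and 6 counts in Col-0. SCA3 (AT2G24120), a nuclear-encoded phage-type RNA polymerase of plastids, had 52.7, 34.1 and 62.9 CPM in prp4k3 and 19.0, 13.3 and 17.2 CPM in Col-0, without overlap (log2 fold change 1.60, SE 0.23, edgeR adjusted p = 0.000196). Among 13 PEP-associated proteins, which join the PEP core in chloroplasts, 9 were higher and 4 lower (median 0.61), against 35.2% higher and 30.5% lower among all features. The fit on total counts called 10 of them higher and 1 lower, and the fit on total nuclear counts called 9 higher and 2 lower. Their medians on those scales were 1.41 and 1.14, against 0.86 and 0.59 over all features. These gaps repeat that of the nuclear scale, since a change of scale moves all features by about the same step. PTAC6 (AT1G21600), 1 of the 4 lower members at -0.45 (edgeR adjusted p = 0.0085), was called higher under total counts at 0.35 (edgeR adjusted p = 0.0313). PDE312 (AT3G48500), also named PTAC10, had 30.7, 27.7 and 31.8 CPM in prp4k3 and 9.57, 7.88 and 7.89 CPM in Col-0 (log2 fold change 1.83, SE 0.14, edgeR adjusted p = 3.78e-06). FLN2 (AT1G69200), a fructokinase-like protein of that complex, averaged 19.2 ± 2.73 CPM in prp4k3 and 6.26 ± 0.312 CPM in Col-0 (SD, n = 3 each), a rise of 1.61. PTAC7 (AT5G24314) went the other way, with 47.2, 46.0 and 50.1 CPM in prp4k3 and 122, 134 and 122 CPM in Col-0 (log2 fold change -1.40, SE 0.10, edgeR adjusted p = 3.45e-06).

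Nuclear genes for plastid ribosomal proteins fell together, with 24 of 24 called lower and a median of -1.46. Among all features 30.5% were lower on the nuclear scale, with a median of 0.06. RPS9 (AT1G74970), a protein of the small ribosomal subunit, had 194, 182 and 187 CPM in prp4k3 and 695, 667 and 616 CPM in Col-0 (log2 fold change -1.81, SE 0.10, edgeR adjusted p = 7.28e-07). Under total-count scaling 23 of the 24 were lower. Of 10 genes for plastid RNA processing and stability, 3 were lower and 2 higher on the nuclear scale, and under total-count scaling 1 was lower and 7 higher. Under total-count scaling 87.2% of the calls among all features were higher. The number called on the nuclear scale, 5 of 10, was not above the background of 65.7%. CSP41A (AT3G63140), an RNA-binding protein linked to plastid transcript stability, had 157, 165 and 162 CPM in prp4k3 and 750, 786 and 768 CPM in Col-0 (log2 fold change -2.25, SE 0.09, edgeR adjusted p = 3.29e-07). CRB (AT1G09340), also named CSP41B, fell by 0.95 (edgeR adjusted p = 1.63e-05), a call lost under total-count scaling (-0.14, edgeR adjusted p = 0.198). PGR3 (AT4G31850) and MRL1 (AT4G34830), pentatricopeptide repeat proteins that act on particular plastid transcripts, rose by 0.62 and 0.59 (edgeR adjusted p = 0.00285 and 0.000791).

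**Figure D5:**
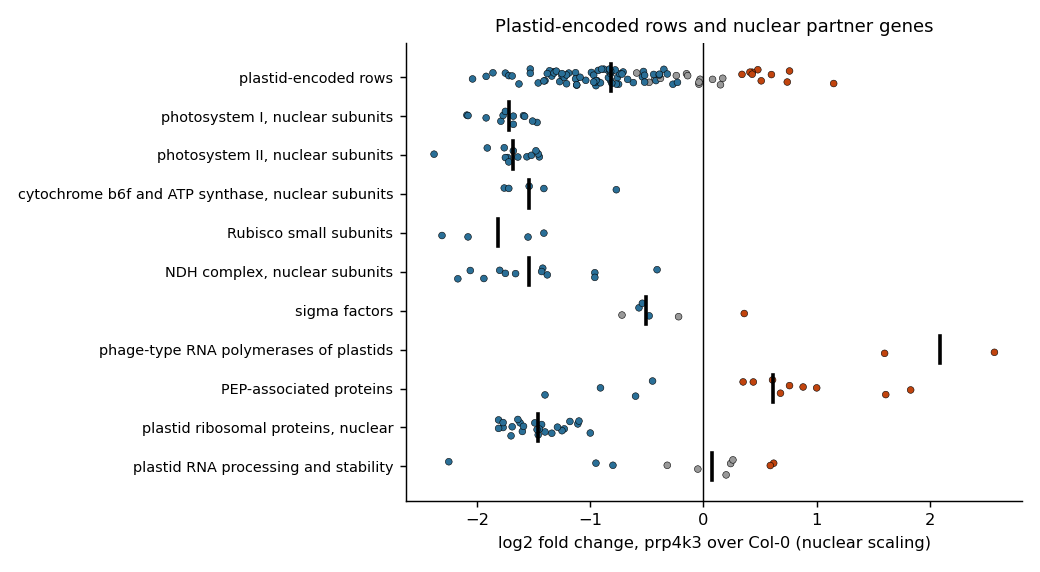
Log2 fold change of prp4k3 over Col-0 on the nuclear scale (horizontal axis) for the 95 tested plastid rows and for lists of nuclear genes of plastid complexes, transcription, translation and RNA processing (vertical axis); each point is a gene, coloured by call (orange higher, blue lower, grey not called), and bars are medians. All 46 subunit genes and all 24 ribosomal protein genes are lower, while both phage-type polymerases and 9 of 13 PEP-associated genes are higher; under total-count scaling 1 subunit gene is higher, and the negative values of 11 of the 101 listed genes turn positive, 5 of them sigma factors.

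Markers of leaf tissue, all of them nuclear genes for chloroplast proteins, moved with the plastid rows. RBCS1A is also 1 of the 4 Rubisco small subunits above, so these markers are not a separate reading of leaf tissue. The 4 leaf markers, RBCS1A, CA1, RCA and LHCB2.1, were all called lower on the nuclear scale, against 30.5% of all features. They fell by 0.95 to 1.98 on the log2 scale. Under total-count scaling 3 of the 4 were lower, where 87.2% of the calls among all features were higher. Their summed level was 20334 to 20685 CPM in prp4k3 and 53115 to 60589 CPM in Col-0. Of 4 root markers none passed the filter: EXPA7 and PRP3 were at 0 counts in every library, and the list summed to 0 to 0.241 CPM in prp4k3 and 0.135 to 0.789 CPM in Col-0. The 3 flower markers, also under the filter, summed to 9.80, 1.81 and 3.72 CPM in prp4k3 and 0.808, 1.33 and 0.789 CPM in Col-0. AP3 had 32, 5 and 13 counts in prp4k3 and 0, 1 and 0 in Col-0. PI had 66, 9 and 20 counts in prp4k3 and 2, 2 and 0 in Col-0. AG overlapped, with 24, 7 and 11 counts in prp4k3 and 4, 8 and 6 in Col-0. All 3 were highest in prp4k3 replicate 1. SAG12 (AT5G45890), a marker of late leaf senescence, had 3.05, 7.40 and 1.35 CPM in prp4k3 and 0.135, 1.09 and 0.131 CPM in Col-0 (edgeR adjusted p = 0.00927). These levels rest on 38, 86 and 16 counts in prp4k3 and 1, 9 and 1 counts in Col-0, so that 2 Col-0 libraries were under the floor of 3 counts and no fold is given. The part of tissue makeup or leaf age in the plastid values was not tested.

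The other organelle did not take a lower share of counts. Mitochondria-encoded rows took 0.564%, 0.576% and 0.569% of each prp4k3 library and 0.316%, 0.320% and 0.319% of each Col-0 library (exact permutation test, p = 0.1), and of 37 tested mitochondrial rows 12 were higher and 9 lower on the nuclear scale, with a median log2 fold change of 0.11. Among all features 35.2% were higher and 30.5% lower, so these mitochondrial counts do not stand out.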

How the data were processed

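RNA-seq libraries were made from total RNA with a stranded total RNA kit, per the labels' protocols. The authors' deposited table gives whole-number counts per feature and beside them a scaled score per library, a linear fold change (ratio), a log2 fold change and p-values with adjusted values, per the file headers. Only the counts were tested. Tools named in the submitters' processing notes are TopHat2, SAMtools, HTSeq and edgeR; their roles, versions, the genome build, strand setting and handling of multiply mapped reads are not stated in those sources. Overlapping rows and repeated copies are therefore uncertain.

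The fits used edgeR 4.0.16 under R 4.3.3 (filterByExpr, quasi-likelihood F-test of genotype, Benjamini-Hochberg over 18609 features, no replicate block), with library sizes and TMM factors from nuclear rows, or with the plastid sum as library size. Single values per library were tested by an exact two-sided permutation test (scipy 1.17.1), which cannot go below p = 0.1 here. Values after ± are SDs for levels. Counts were also simulated with the same dispersion for every row. The nuclear-scale fit called 81.6% of 76 rows given a log2 change of 1 and 20.3% of 74 given 0.5. All of these rows lay outside the organelle chromosomes, so the rates are not those of plastid rows on that scale. The plastid-sum fit called 100% of 24 simulated plastid rows given 1 and 80.8% of 26 given 0.5, on top of a common fall. Intervals and floors cover counting error only. Members, gene lists and rules were chosen with earlier results of these data known. The rule for named rows was, per class, the 2 most abundant members and the extremes of change; without symbols it was applied to all plastid rows as 1 class and held to 2 identifiers per direction, with other rows given by rank. The eighth, twelfth and other rows given by rank, and FLN2, PTAC6, PGR3 and MRL1, were chosen after their values were seen; nuclear partner genes were otherwise the 2 with the lowest adjusted p per list and every sigma factor and named polymerase. Of 101 listed partner loci, 84 carry the listed name in RefSeq; others were counted and, apart from SCA3, not named. Alternatives were other scalings, DESeq2 1.42.0, other filters, a replicate block and each library left out.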

Additional observations from a re-analysis of the deposited data

How the results depend on the processing

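The call counts depended on scaling. Relative to nuclear transcripts, 10 plastid rows higher and 72 lower became 31 and 30 under total-count scaling and 20 and 46 under total nuclear counts without TMM, while TMM over all features, RLE, upper quartile, DESeq2 (10 and 71), no filter (10 and 74) and a minimum of 1 CPM stayed within 1.5 times. The share of higher calls among all features was 53.6%, 87.2% under total counts and 79.1% under total nuclear counts. Relative to the plastid sum, 12 rows lower became 29 without the 2 most abundant rows in the sum and 30 with TMM over plastid rows, with 31 higher in both. Partner genes higher went to 23 under total counts, against 14. The plastid share differed by -4.26 points without the 2 most abundant rows, an alternative chosen after seeing the data. Leaving out a library gave 8 to 10 rows higher and 67 to 74 lower on the nuclear scale, and 44 to 49 higher and 8 to 13 lower on the plastid sum. Of the 101 partner genes, 11 turned positive under total counts, 6 of them called higher there; the sigma factors among them were SIGA (0.24), SIGC (0.32), SIG4 (0.26), SIGE (0.08) and SIGF (0.58). Under total nuclear counts the sigma factors SIGC (0.05) and SIGF (0.32) turned. Deviations from the genotype mean correlated at -0.0524, 0.0561 and -0.0504 between same-numbered libraries and at -0.148 to 0.172 between the others. The labels do not say whether repeat numbers pair libraries, and so few correlations cannot decide it. With the replicate block the counts were 10 and 70, and 46 and 11, and SIGE was called (-0.95, edgeR adjusted p = 0.0172). Calls of SIGA and SIG4 were lost without prp4k3 replicate 1 or 3, of SIGA also without Col-0 replicate 1, and of SIG4 also without Col-0 replicate 2 or 3; the cause was not tested. Not run, for want of a pairing of identifiers with symbols: class shares, the plastid sum without tRNA and rRNA rows or without repeated copies, and the library total without organelle rRNA. Rows under 1000 counts, 12 of the 95 tested, are limited by depth.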
